A study of Mus musculus with 6 samples.

Results

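The 9 genes described here encode enzymes that the acinar cells of the pancreas make and release to digest food, and a cofactor of such an enzyme. They are Cpa1, Cpb1, Cel, Pnlip, Ctrb1, Cela2a, Cela3b, Prss2 and Clps, taken by name from a table of 24421 genes. They were chosen by their FPKM values in these same libraries, having been seen to be high in stimulated replicate 2 against the other 5, so their level in that library is given as a description without a test. The libraries come from regulatory T cells (Treg) of mouse spleen and lymph nodes, a CD4 T-cell type marked by the factor Foxp3 that holds immune responses in check. Poly(A) RNA was profiled by SMART-seq, in which full-length cDNA is made and then multiplied by PCR. All 6 libraries are labelled wild type, with no other allele named, and they form 3 groups of 2: stimulated with iBP, stimulated without iBP, and unstimulated. The study's design names iBP as an inhibitor of H2AK119ub1, the ubiquitin mark on histone H2A placed by Polycomb repressive complex 1. Kdm2b conditional knockout Treg, which the design mentions as well, were not analysed here. The age of the mice, the stimulus, the dose of iBP and the purity of the cells are not given in the labels. Separate animals are not stated for the replicates either, so a p-value here reflects the spread among these libraries alone, and that spread may be technical.

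Acinar cells fill the exocrine pancreas, and almost all of the protein they make is secreted. Proteases leave the cell as inactive precursors: trypsinogen is activated in the gut, and trypsin then activates the precursors of chymotrypsin, elastase and the carboxypeptidases. Lipases and amylase are secreted alongside them. The genes are switched on together by a set of acinar transcription factors, among them PTF1A with its partner RBPJL, NR5A2 and BHLHA15 (MIST1), and they are not known as products of T cells. The pancreas lies next to the spleen in the abdomen.

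The upstream sequences of 4 of the genes are shown because the genes are known to share acinar regulation. The PTF1 complex is known to bind an E-box, CANNTG, near the box TTTCCC. Sequences of the 250 bases before the start were available for 8 of the 9 genes from RefSeq (GRCm38.p6), and Clps had none. Each is written 5′ to 3′ on the strand of the gene, with CANNTG, and TTTCCC on either strand, in capitals.
Ctrb1: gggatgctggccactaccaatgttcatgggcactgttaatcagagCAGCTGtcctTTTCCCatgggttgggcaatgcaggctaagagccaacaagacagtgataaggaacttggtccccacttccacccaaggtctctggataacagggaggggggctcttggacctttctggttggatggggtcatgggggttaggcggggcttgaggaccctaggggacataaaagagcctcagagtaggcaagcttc
Cpa1: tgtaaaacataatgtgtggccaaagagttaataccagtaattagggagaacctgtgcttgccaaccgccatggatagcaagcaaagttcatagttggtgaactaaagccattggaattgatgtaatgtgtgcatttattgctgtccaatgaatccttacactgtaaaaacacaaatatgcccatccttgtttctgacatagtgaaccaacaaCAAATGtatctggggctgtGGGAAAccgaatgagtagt
Cel: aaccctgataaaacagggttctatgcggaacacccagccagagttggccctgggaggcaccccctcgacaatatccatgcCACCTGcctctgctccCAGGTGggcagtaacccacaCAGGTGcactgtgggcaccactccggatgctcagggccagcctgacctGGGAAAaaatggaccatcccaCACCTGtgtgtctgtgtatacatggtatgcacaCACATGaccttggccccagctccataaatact
Pnlip: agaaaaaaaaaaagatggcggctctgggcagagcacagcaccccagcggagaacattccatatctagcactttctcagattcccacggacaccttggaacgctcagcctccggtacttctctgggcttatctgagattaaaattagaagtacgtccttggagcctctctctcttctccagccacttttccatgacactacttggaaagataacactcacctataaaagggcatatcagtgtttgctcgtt
They lie at chr8:111691011-111691260 (minus strand) for Ctrb1, chr6:30638968-30639217 (plus) for Cpa1, chr2:28563404-28563653 (minus) for Cel and chr19:58670115-58670364 (plus) for Pnlip, whose RefSeq start lies inside the span GENCODE gives the gene. The nearest CANNTG and TTTCCC stood 4 bases apart in Ctrb1, 13 in Cpa1 and 15 in Cel, while the Pnlip window held neither. Over the 8 genes, 7 windows held CANNTG, against 66.2% of all 32851 RefSeq windows of this length, and 5 held TTTCCC, against 21.9%. Both were in 5 of the 8 (Cel, Cela2a, Cpa1, Prss2 and Ctrb1), against 14.2% of all windows, and no copy of one overlapped a copy of the other. A match of letters is a description and not a bound site.

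All 9 genes were above 0 in all 6 libraries, and all 9 had their highest value in stimulated replicate 2, where 20.6% of the 10436 genes with at least 1 FPKM in at least 2 libraries also had theirs. The choice of genes used this contrast. Values are FPKM, the authors' measure of expression per unit of transcript length and of library size. The summed FPKM of the 9 genes was 53.7 and 73.2 in stimulated libraries with iBP, 69.3 and 212 in stimulated libraries, and 62.3 and 57.9 in unstimulated libraries. Stimulated replicate 2 thus stood 2.89-fold above the next library and 3.34-fold above the mean of the other 5 (63.3 ± 8.0, SD, n = 5). As a share of all summed FPKM, the 9 genes took 0.0558% in stimulated replicate 2 and 0.0147% to 0.0200% in the others. The group means were 63.5 ± 13.8 FPKM with iBP, 140 ± 101 FPKM in stimulated and 60.1 ± 3.14 FPKM in unstimulated libraries (SD, n = 2 each). The spread of the stimulated group comes from its second library.

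**Figure D1:**
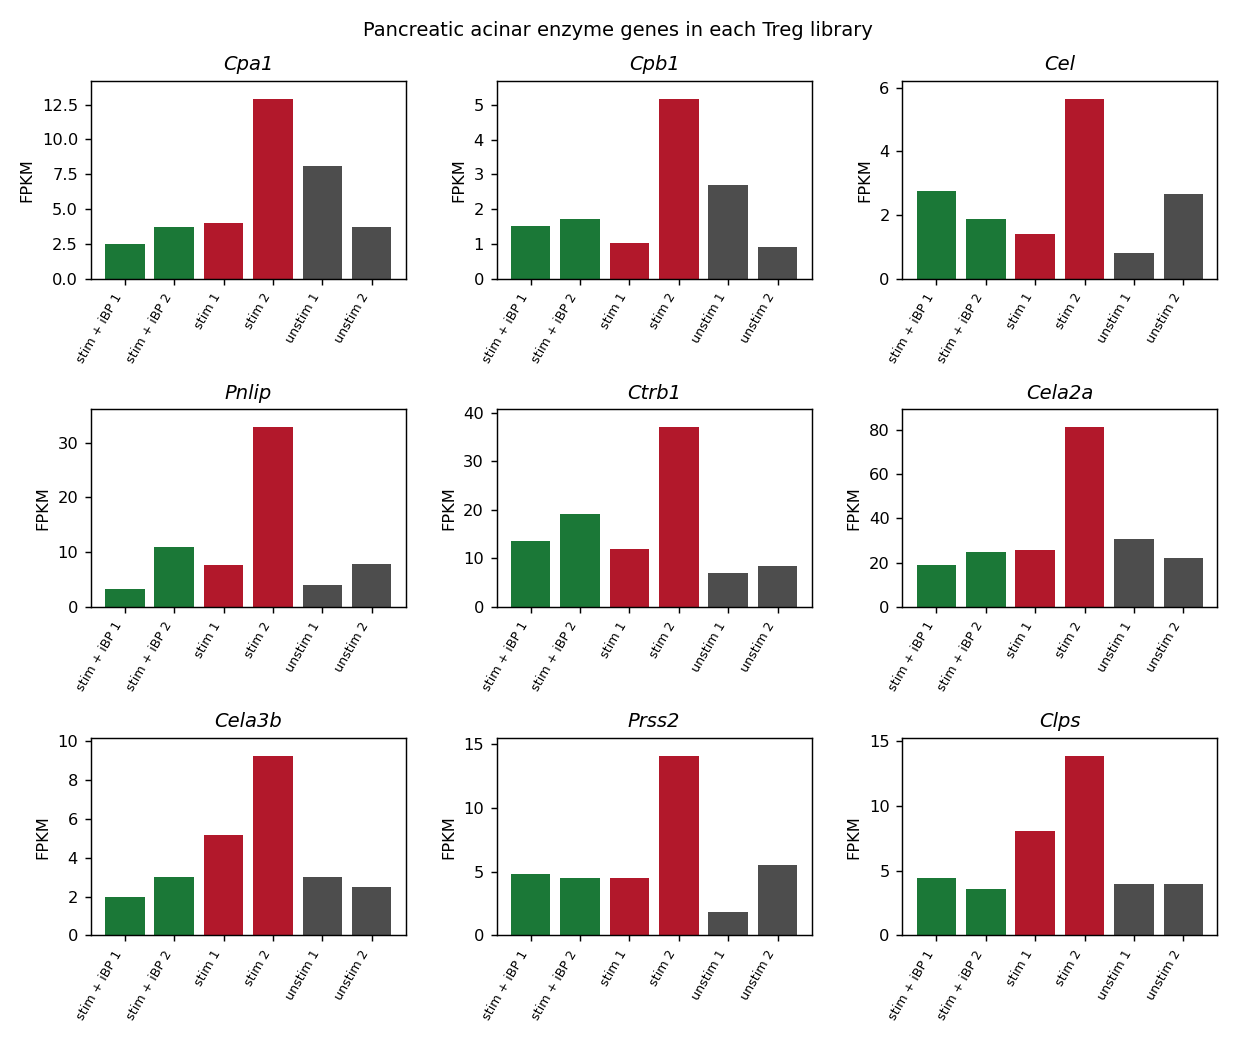
FPKM (vertical axes, each starting at 0) of the 9 acinar enzyme genes in each library, with the 2 stimulated libraries with iBP in green, the 2 stimulated libraries in red and the 2 unstimulated libraries in grey. In each panel stimulated replicate 2 is the tallest bar, from 5.17 FPKM for Cpb1 to 80.9 FPKM for Cela2a.

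Cela2a and Ctrb1, an elastase and a chymotrypsin gene, had the highest FPKM of the 9 genes. Cela2a encodes an elastase, a serine protease. It read 19.0 and 24.6 FPKM with iBP, 25.6 and 80.9 FPKM in stimulated replicates 1 and 2, and 30.8 and 22.2 FPKM in unstimulated libraries. Only stimulated replicate 2 lay above 30.8 FPKM, and the other 5 libraries lay within 1.62-fold of each other, the smallest such spread of the 9 genes. The Cela2a gene lies at chr4:141814962-141826160 on the minus strand (GRCm38, GENCODE M21). Annotated exons of Cela2a share 94 bases with Casp9, a caspase gene on the opposite strand, and 305 bases with Ctrc, another pancreatic protease gene on the same strand, so reads there can belong to either gene. For Ctrc strand would not separate them, and for Casp9 it is not stated whether strand was used. Casp9 read 0.422 to 2.36 FPKM over the 6 libraries and was not highest in stimulated replicate 2 (0.781 FPKM). Ctrc was listed at 0 in 5 libraries and read 0.381 FPKM in stimulated replicate 2.

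Ctrb1 encodes chymotrypsinogen B1, the precursor of a protease that cuts after aromatic residues. It read 13.5 and 19.2 FPKM with iBP, 12.0 and 37.0 FPKM in stimulated libraries, and 7.05 and 8.48 FPKM in unstimulated libraries. Both groups given the stimulus lay wholly above the unstimulated libraries in this gene. Ctrb1 has 7 exons at chr8:111686519-111691010 on the minus strand. Cela3b, a further elastase-family gene at chr4:137420999-137430540 (minus strand), read 1.98 and 3.0 FPKM with iBP, 5.16 and 9.25 FPKM in stimulated libraries, and 3.01 and 2.52 FPKM in unstimulated libraries. Its stimulated libraries were the highest pair of the 6.

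Prss2 encodes a trypsinogen, the precursor that starts the protease cascade in the gut. It read 4.81 and 4.47 FPKM with iBP, 4.50 and 14.1 FPKM in stimulated libraries, and 1.81 and 5.50 FPKM in unstimulated libraries. The 3 groups overlapped apart from the value of stimulated replicate 2. The gene lies inside the T-cell receptor beta locus, at chr6:41521787-41525079 on the plus strand, with 8122 bases between its end and Trbd1, the first D segment of that locus. GENCODE places 8 protein-coding genes between the V segment Trbv30 and Trbd1. They are Prss2, Try4, Try5, Try10, Prss3, Prss1, Gm5771 and Gm10334. Of these, only Try4, Try5 and Prss2 reached 1 FPKM in any library. Prss1, Gm5771 and Gm10334 were listed at 0 in all 6, and Prss3 and Try10 read at most 0.350 and 0.411 FPKM. Summed over Prss2, Try4 and Try5, which are close copies and may share reads, the value was 9.10 and 8.99 FPKM with iBP, 13.8 and 33.8 FPKM in stimulated libraries, and 8.49 and 10.6 FPKM in unstimulated libraries. The sum in stimulated replicate 2 was 2.44-fold above the next library.

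Carboxypeptidases remove residues from the end of peptides. Cpa1, which encodes carboxypeptidase A1 for aromatic and aliphatic ends, read 2.47 and 3.73 FPKM with iBP, 3.96 and 12.9 FPKM in stimulated libraries, and 8.11 and 3.69 FPKM in unstimulated libraries. Its value in unstimulated replicate 1 was the second highest, and its step from that library to stimulated replicate 2, 1.59-fold, was the smallest of the 9 genes. Cpb1, which encodes carboxypeptidase B1 for basic ends, read 1.53 and 1.72 FPKM with iBP, 1.04 and 5.17 FPKM in stimulated libraries, and 2.70 and 0.903 FPKM in unstimulated libraries. Here too unstimulated replicate 1 came second. Cpa1 lies at chr6:30639218-30645363 (plus strand) and Cpb1 at chr3:20248264-20275733 (minus strand).

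Of the fat-digesting genes, Pnlip encodes pancreatic triglyceride lipase, Clps encodes colipase, the cofactor that holds this lipase on fat droplets, and Cel encodes bile salt-dependent carboxyl ester lipase. Pnlip read 3.23 and 10.9 FPKM with iBP, 7.57 and 32.8 FPKM in stimulated libraries, and 4.07 and 7.90 FPKM in unstimulated libraries. Its step of 3.0-fold over the next library was the largest of the 9. Clps read 4.47 and 3.62 FPKM with iBP, 8.06 and 13.9 FPKM in stimulated libraries, and 3.99 and 3.97 FPKM in unstimulated libraries. Both stimulated libraries lay above the other 4 in this gene. Cel read 2.74 and 1.88 FPKM with iBP, 1.40 and 5.64 FPKM in stimulated libraries, and 0.793 and 2.67 FPKM in unstimulated libraries, with overlap between all groups below stimulated replicate 2. Pnlip lies at chr19:58652498-58681788 (plus strand), Clps at chr17:28558149-28560766 (minus strand) and Cel at chr2:28555795-28563403 (minus strand).

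FPKM is scaled to length, so the levels of these genes can be ordered. Cela2a was above Ctrb1, and Ctrb1 above Pnlip, in 6 of 6 libraries each. Below them the order was not kept: Pnlip was above Clps in 4 of 6 libraries, Clps above Cpa1 in 4, and Cpa1 above Prss2 in 1, although its mean over the 5 libraries other than stimulated replicate 2 was higher (4.39 ± 2.16 against 4.22 ± 1.41 FPKM, SD, n = 5). Cel and Cpb1 were the lowest by that mean, at 1.90 ± 0.831 and 1.58 ± 0.711 FPKM.

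The make-up of the summed signal in stimulated replicate 2 lay mostly within the range of the other 5 libraries. Cela2a took 38.3% of the 9 genes' FPKM in stimulated replicate 2 and 33.7% to 49.4% in the other libraries, and Ctrb1 took 17.5% against 11.3% to 26.2%. For 8 of the 9 genes the share in stimulated replicate 2 lay within the range of the other 5. The exception was Pnlip, at 15.5% against 6.01% to 14.9%. Among the other 5 libraries the make-up varied: Cpa1 took 13.0% in unstimulated replicate 1 and 4.59% to 6.37% elsewhere, and Ctrb1 took 25.2% and 26.2% in the libraries with iBP. Read depth is unknown, so how much of this comes from counting few reads cannot be given.

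**Figure D2:**
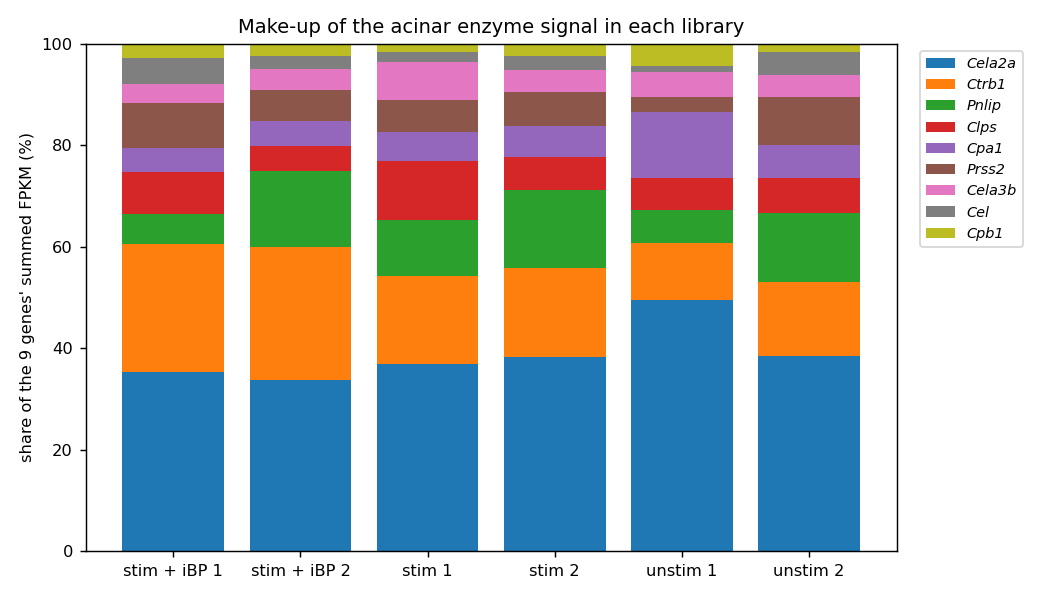
Share of each gene in the summed FPKM of the 9 acinar enzyme genes (vertical axis, percent), 1 stacked bar per library. The bar of stimulated replicate 2 (stim 2) has Cela2a at 38.3% and Pnlip at 15.5%, and unstimulated replicate 1 has the largest Cela2a share, 49.4%.

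Other secretory products of acinar cells were also most often highest in that library. They were listed with earlier results of these data known, so their counts are a description. Of 44 such genes listed, 41 are in the table, 32 were above 0 in at least 1 library and 14 had at least 1 FPKM in at least 2 libraries. Of these 14, 12 were highest in stimulated replicate 2, and Pnliprp1 and Klk1 among them passed this filter only through that library. Over all 10436 genes that pass this filter, 20.6% were highest in that library, 13.0% and 12.4% in the libraries with iBP, 12.9% in stimulated replicate 1, and 22.2% and 18.8% in unstimulated replicates 1 and 2. The 2 exceptions were Dnase1, highest in unstimulated replicate 1 (2.34 FPKM), and Erp27, highest in iBP replicate 1 (3.18 FPKM). Of the 32 genes above 0 in any library, 21 were highest in stimulated replicate 2, 5 in unstimulated replicate 1, 4 in iBP replicate 2 and 1 each in iBP replicate 1 and stimulated replicate 1. The shares above hold for filtered genes only. This wider set includes genes near 0, and no share over all genes was taken for it, so its counts are not read further. The summed FPKM of the 41 genes was 49.5 and 78.5 with iBP, 64.4 and 207 in stimulated libraries, and 73.8 and 52.5 in unstimulated libraries.

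Pancreatic amylase, which digests starch, was the largest of these products. Mouse Amy2 genes are close copies between which reads can be split, and the split varied: iBP replicate 1 had 9.84 FPKM for Amy2a5 and 12.5 for Amy2a2, while unstimulated replicate 1 had 34.0 and 3.11. Of the 5 Amy2 genes summed here, Amy2b is annotated as a pseudogene in GENCODE M21. Summed over 5 Amy2 genes, amylase read 25.8 and 38.3 FPKM with iBP, 28.5 and 116 FPKM in stimulated libraries, and 46.0 and 23.1 FPKM in unstimulated libraries. The sum in stimulated replicate 2 was 2.51-fold that of the next library, unstimulated replicate 1. Cela1, another elastase gene, read 29.5 FPKM in stimulated replicate 2 and 5.25 to 16.1 in the others. Pnliprp1, a lipase-related gene, read 5.17 FPKM against 0.0720 to 1.33. The trypsinogen genes Try4 and Try5 read 12.0 and 7.68 FPKM, against at most 6.19 and 3.14.

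Further listed products were above 0 in stimulated replicate 2. Reg1, a secreted lectin gene of acinar cells, read 10.7 FPKM there and 8.79 FPKM in iBP replicate 2, with at most 3.49 FPKM elsewhere. Rnase1, a secreted ribonuclease gene, read 4.53 FPKM against at most 1.94, Klk1, a kallikrein gene, 3.88 FPKM against at most 2.01, and Ctrl, a chymotrypsin-like gene, 3.16 FPKM against at most 2.5. Pdia2, a pancreatic protein disulphide isomerase gene, read 2.82 FPKM against at most 0.934, and 2210010C04Rik 2.31 FPKM against at most 0.901. Erp27, a disulphide isomerase family gene, read 2.25 FPKM against at most 3.18. Zg16, 1810009J06Rik, Gp2, Pnliprp2, Dmbt1, Serpini2, Sycn, Try10, Amy2a3 and Amy2a4, beside Ctrc, lay between 0.0662 and 0.737 FPKM in stimulated replicate 2. Dnase1 stood at 1.36 FPKM there.

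**Figure D3:**
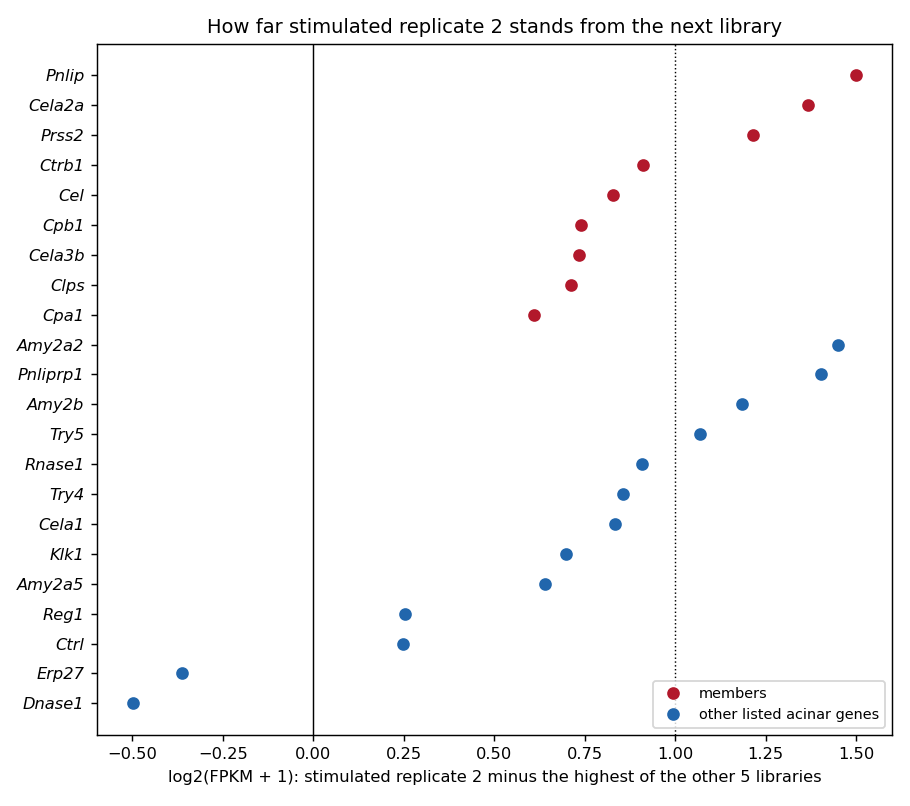
Difference in log2(FPKM + 1) between stimulated replicate 2 and the highest of the other 5 libraries (horizontal axis) for the 9 members (red) and 13 of the 14 other listed acinar genes that pass the filter (blue); the solid line marks 0 and the dotted line a step of 1. The members run from 0.61 (Cpa1) to 1.5 (Pnlip), and 11 of the 13 other genes drawn lie right of 0.

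The genes that define acinar identity were at or near 0. Of 10 listed regulators, 8 were listed at 0 in all 6 libraries, among them Ptf1a, Nr5a2, Gata4 and Pdx1. Rbpjl read 0.0705 FPKM in iBP replicate 2 and was listed at 0 elsewhere. Bhlha15, which plasma cells also express, read at most 0.653 FPKM, in stimulated replicate 1, and 0.494 FPKM in stimulated replicate 2. An exact 0 in a table without counts can be a failed estimate, so this says only how the genes are listed. The label of acinar transcripts thus rests on abundant secretory products and not on regulators, and in bulk RNA fewer cells of a type and less RNA per cell cannot be told apart.

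Of the marker lists for other tissues and cells, only the duct and epithelial and the endoplasmic reticulum lists had their highest sum in stimulated replicate 2. Islet genes summed to 0.140 and 1.32 FPKM with iBP, 2.71 and 2.28 FPKM in stimulated libraries, and 1.95 and 1.16 FPKM in unstimulated libraries, with 5 of 16 at 0 in all libraries; the insulin gene Ins2 read 1.05 FPKM in stimulated replicate 2 and 1.16 in replicate 1. Duct and epithelial genes summed to 48.1 FPKM in stimulated replicate 2 and 25.0 to 37.8 in the others. This sum is carried by Spp1 and Epcam, which immune cells also express, while Krt7, Krt8, Sox9 and Cftr were listed at 0 in all 6 libraries. Of the 13 genes of this list, 8 were above 0 in at least 1 library, 7 of them in stimulated replicate 2. Krt18, a keratin gene, had at least 1 FPKM in at least 2 libraries, as did Spp1 and Epcam. Of these 3 genes, 2 were highest in stimulated replicate 2 and 1 in unstimulated replicate 1. Over all genes that pass this filter, those shares were 20.6% and 22.2%. For adipocyte, fibroblast and endothelial, liver, gut, muscle, erythroid, myeloid, B-cell and T-cell lists, the sum in stimulated replicate 2 was 0.598 to 0.992 times that of the highest other library. The T-cell list, with Foxp3, Il2ra and Cd3e, summed to 1028 and 1033 FPKM with iBP, 988 and 1012 FPKM in stimulated libraries, and 785 and 792 FPKM in unstimulated libraries. Chaperones and export factors of the endoplasmic reticulum, which acinar and plasma cells hold in large amounts, summed to 2342 FPKM in stimulated replicate 2 and 2137 to 2334 in the others. How the acinar transcripts came to be in the preparations was not tested.

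**Figure D4:**
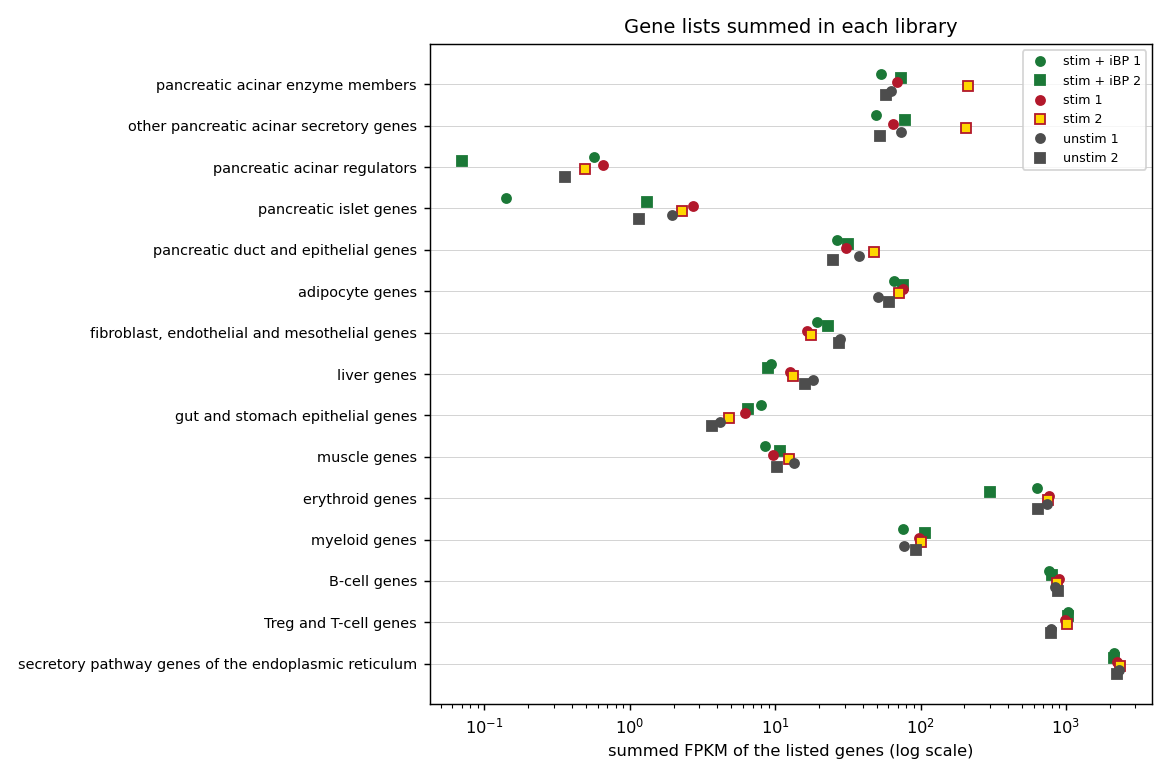
Summed FPKM (horizontal axis, log scale) of the genes of each list, with 1 point per library: green for stimulated with iBP, red for stimulated (replicate 2 filled yellow) and grey for unstimulated, circles for replicate 1 and squares for replicate 2. The yellow square stands to the right of the rest in both acinar enzyme lists (212 and 207 FPKM), and a regulator sum of 0 in unstimulated replicate 1 is not drawn.

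Genes outside the pancreas lists also stood apart in stimulated replicate 2. In it, 46 genes with at least 1 FPKM stood at least 1 log2 unit above each other library, 0.465% of the 9900 genes at that level, against 17 and 14 genes in the libraries with iBP (0.172% and 0.142%), 14 in stimulated replicate 1 (0.142%), and 32 and 16 in unstimulated libraries (0.328% and 0.161%). The 46 held 3 of the 9 members (Pnlip, Cela2a and Prss2) and 4 other listed acinar genes (Amy2a2, Amy2b, Pnliprp1 and Try5). In the other 5 libraries such genes held 0 members, and 2 other acinar genes, in unstimulated replicate 1. By correlation over the 6 libraries with the members' mean log2(FPKM + 1), the non-members most like them were Wdr31, with Pearson's r of 0.985, and Mir5129, with 0.981. Another 20 genes were listed at 0 in the other 5 libraries, which gives each of them the same r of 0.981, so they cannot be ranked among themselves. Those named from this tie, taken in alphabetical order up to the limit of 15 genes, read at most 2.81 FPKM and included Hpgd, Fgfbp1, Il19, Krtap3-3 and Mir30b. A correlation over 6 values of which 1 stands apart is set by that value.

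With the added condition of a value above 0 in all 6 libraries, chosen after seeing the data, 13 non-members remained, with r of 0.818 to 0.981, and 4 of them were listed acinar genes. The others included Rasl11a, a RAS-like GTPase gene (7.33 FPKM in stimulated replicate 2 against at most 2.40), Slc10a7, a transporter gene (8.32 against at most 3.54), and Kif2c, a mitotic kinesin gene (7.22 against at most 2.64). Il17f, a cytokine gene of type 17 T cells, read 24.7 FPKM in stimulated replicate 2, 4.15 and 11.1 with iBP, 7.98 in stimulated replicate 1, and 3.46 and 2.61 in unstimulated libraries. The pseudogene Nutf2-ps1 read 86.8 FPKM against at most 25.7. The genes that stand apart in this library are thus not all of the pancreas.

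The comparison of stimulated libraries with iBP against unstimulated ones is the only contrast whose means do not hold stimulated replicate 2. All 9 genes passed the filter of 1 FPKM in 2 libraries. In limma, 0 of 9 had an adjusted p under 0.05, where 1.75% of all 10436 genes did. An unadjusted p under 0.05 was found for 1 of the 9 and for 1278 of the 10436 genes. The libraries with iBP lay wholly above the unstimulated ones in 1 of 9 (18.1% of all genes did) and wholly below them in 0 of 9 (23.9% did). Ctrb1 had that unadjusted p and was also the gene wholly above, with 16.4 ± 4.01 FPKM with iBP and 7.76 ± 1.01 FPKM in unstimulated libraries (SD, n = 2 each). Its log2 difference was 0.97 ± 0.39 (SE, limma, adjusted p = 0.320). Cpa1 had the largest difference the other way, at −0.69 ± 0.46 (SE, limma, adjusted p = 0.610). The 9 differences had a median of 0.01, with 5 of 9 above 0, against a median of −0.03 and 45.6% above 0 for all tested genes.

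These 0 calls do not show equal levels. The 95% intervals ran from −0.63 to 0.66 for Clps, the narrowest of the 9, and from −1.20 to 1.37 for Pnlip. The fit shares 1 estimate of spread over all 3 groups, so the gap between the stimulated libraries widens these intervals; without stimulated replicate 2 the adjusted p of Ctrb1 was 0.0921, and without stimulated replicate 1 it was 0.0700. Its direction held in each fit without 1 library, at 0.73 to 1.21.

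**Figure D5:**
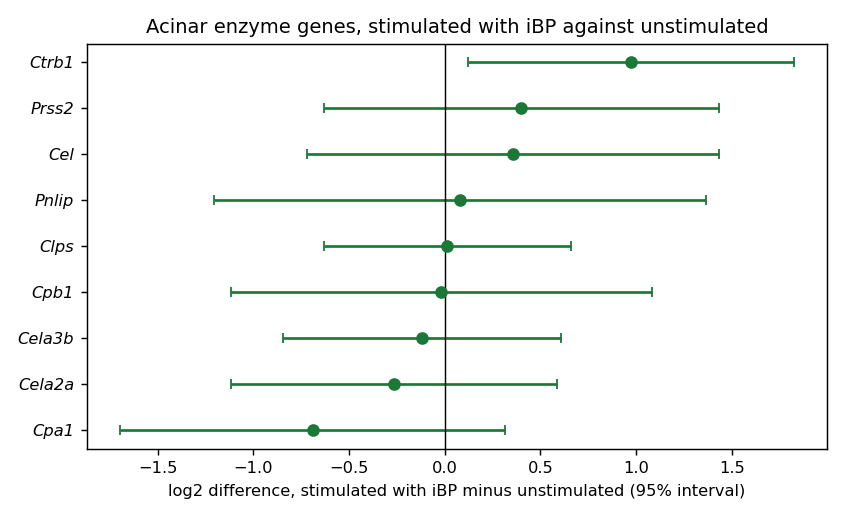
Fitted log2 difference in log2(FPKM + 1), stimulated with iBP minus unstimulated (horizontal axis), for the 9 genes; points are limma estimates and bars 95% intervals, with 2 libraries per group. The Ctrb1 interval, 0.12 to 1.82, lies above 0 before adjustment for the number of genes, and the other 8 intervals cross 0.

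Both remaining comparisons hold stimulated replicate 2 and share its group, so their values describe the choice of genes. In stimulated against unstimulated libraries, the 9 fitted log2 differences were all above 0, from 0.35 for Cpa1 to 1.35 for Ctrb1, with a median of 1.08 against −0.0024 for all tested genes. No test of the members is read here, since the contrast chose them; limma called 1.29% of all tested genes. The stimulated pair lay wholly above the unstimulated pair in 3 of 9 (Ctrb1, Cela3b and Clps), where 18.7% of all genes did. Without stimulated replicate 2 the differences were −0.40 for Cpa1, −0.38 for Cpb1, −0.09 for Cel and −0.03 for Cela2a, and above 0 for the other 5, from 0.35 for Pnlip to 0.86 for Clps.

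In stimulated libraries with iBP against stimulated ones, the 9 differences were all below 0, with a median of −1.04 against −0.03 for all tested genes. They ran from −0.28 for Cel to −1.26 for Pnlip. Again no test of the members is read; limma called 0.00958% of all tested genes. The libraries with iBP lay wholly below the stimulated pair in 4 of 9 (Cpa1, Cela2a, Cela3b and Clps), where 21.0% of all genes did. The level of the acinar genes in stimulated replicate 2 thus enters both comparisons with opposite signs, and what part it has in calls of other genes was not tested.

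The whole table gives the frame for these values. Summed FPKM per library was 366044 to 381302, and 12596 to 13592 genes per library were above 0. Stimulated replicate 2, at 378906 and 13319, lay within both ranges. Its median-of-ratios scaling factor was 1.04, against 0.984 to 1.03 for the others.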

How the data were processed

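The authors deposited FPKM values for each gene in each library. HISAT2 2.2.1, StringTie 2.1.1 and mm10 are named in the submitters' processing notes. For the annotation, the use of strand and the handling of multi-mapped reads, no setting is stated in those sources. Read depth is unknown, so no counting error is attached to a value.

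Members and gene lists were chosen with earlier results of these data known. Values were analysed as log2(FPKM + 1), which understates changes of low genes. Genes with at least 1 FPKM in at least 2 libraries, 10436 of 24421, were fitted with limma 3.58.1 (R 4.3.3; 3 groups, all 6 libraries, variance trend, two-sided, Benjamini-Hochberg over all tested genes, threshold 0.05). The test was tested on simulated data. Named are the 9 members, listed acinar genes above 0 in stimulated replicate 2, and up to 15 non-members with the highest correlation to the members among genes standing at least 1 log2 unit apart in that library. Alternatives were another pseudocount (0.1), other filters (none, or 5 FPKM), 2 other scalings, a replicate term and leaving out each library. Some listed genes enter counts and sums but are not reported here by name. Coordinates are from GENCODE M21. Figures were drawn with matplotlib 3.10.9.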

Additional observations from a re-analysis of the deposited data

How the results depend on the processing

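The 2.89-fold step of the members' sum was 2.80 after rescaling to TPM, 2.74 with median-of-ratios scaling and 2.69 without Cela2a. It was 2.84 to 3.05 without any 1 other member (chosen after seeing the data). Without iBP replicate 2, the highest of the other 5 libraries, it was 3.05. Leaving out any of the rest cannot move it, since the step is taken to the highest. All of these lay within 0.365 of 2.89. That margin is 2.89 times the SD of the other 5 libraries' sums over their mean. Without stimulated replicate 2 the step has no value.

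In stimulated with iBP against unstimulated libraries, the count of members called by limma was 0 with each pseudocount, filter and scaling. The other 2 comparisons hold stimulated replicate 2, so no test of the members is read in them. A minimum of 5 FPKM left 7 of 9 members. Counts over all genes moved more. Stimulated against unstimulated had 135 calls, but 12 without the filter, and 54 to 141 without 1 library. Stimulated with iBP against stimulated had 1, but 0 without the filter, and 0 to 5 without 1 library. Stimulated with iBP against unstimulated had 183, but 11 without the filter, and 53 to 190 without 1 library.

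The labels do not say that replicate numbers pair the samples, and replicate differences did not correlate between groups (r across genes −0.05 to −0.01). With the replicate number as a block, all-gene calls were 79, 1 and 109 in the order above. In the last of these comparisons, 0 members were called.

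Of 106 alternative values of the members' differences with iBP against unstimulated, 11 changed sign. Many of the 106 could not change. Another filter, the replicate term or leaving out a stimulated library without iBP does not move a difference of these 2 group means. Those values repeat the main fit, so the share of 11 in 106 does not measure stability. Cpb1, at −0.02, was 0.038 with a pseudocount of 0.1, 0.046 in TPM and 0.0029 with median-of-ratios scaling. Without 1 library, Cpb1 ran from −0.50 to 0.46, Cel from −0.16 to 0.87, Pnlip from −0.67 to 0.83, Cela3b from −0.33 to 0.091, Prss2 from −0.21 to 1.01 and Clps from −0.11 to 0.14. Groups of 2 libraries and unknown depth limit all of these values.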
